A study of Homo sapiens with 6 samples.

Results

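The genes described here are 10 genes of epithelial inflammation, namely the dual oxidase gene DUOX2 and its maturation factor DUOXA2, the chemokine genes CCL20, CXCL8, CXCL1, CXCL2 and CXCL5, and the NF-kB-linked genes LCN2, IL32 and NFKBIA. They were picked by function around DUOX2 and CCL20, which had been seen to be among the largest falls after MTR4 knockdown, so their differences between the groups are given as a description without a test. All 10 were found by symbol among the 60675 Ensembl genes of the count files, and all 10 were among the 18075 genes kept by the filter on low counts. RNA-seq was performed on PLC/PRF5 cells, a human hepatocellular carcinoma (HCC) line grown in DMEM with 10% fetal bovine serum, with 3 control libraries and 3 MTR4 KD libraries. MTR4 (current symbol MTREX) is an RNA helicase of the nuclear exosome, which trims and degrades RNA. The study describes lentiviral short hairpin RNAs against MTR4, in a stable form and in a form that doxycycline switches on. Its text says that the RNA-seq compared cells before and after induced knockdown. In cells with an inducible scramble hairpin, it reports no effect of doxycycline on the glycolytic genes measured. The labels of the control libraries give neither a hairpin nor a drug. For the genes described here, an effect of doxycycline or of hairpin expression therefore cannot be told apart from that of MTR4 loss. Nothing in the labels says that the replicates were separate cultures, and p-values then measure only the spread between these libraries.

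The gene counts of a library summed to 60686786 to 72708682 reads. MTR4 itself was at 72.2, 87.4 and 74.4 CPM (reads of the gene relative to the TMM-scaled library size, the usual counts-per-1e+06 scale) in the control libraries and at 44.6, 48.8 and 44.1 CPM in the MTR4 KD libraries, so part of its expression remained. Reads that aligned to more than 1 place made up 34.7% to 37.5% of the control 1, control 3 and MTR4 KD 3 libraries, and 14.8% to 18.2% of the control 2, MTR4 KD 1 and MTR4 KD 2 libraries. Both classes held both groups, and differences are therefore also given within each class. All 11 markers of liver and epithelial cells were expressed, SERPINA1 with a mean of 10576 CPM and ALB with 747.6 CPM in the control libraries. KRT19 was low, with 63, 50 and 59 reads in the control and 12, 3 and 11 reads in the MTR4 KD libraries. With an adjusted p under 0.05 in edgeR's quasi-likelihood test, TTR, APOA1 and ALB rose by 0.88, 0.52 and 0.29 on the log2 scale and the keratins KRT19 and KRT18 fell by 2.67 and 0.26, and the part of these changes in the results was not tested. The calls held in 11 of 13 alternative fits for APOA1, in 10 of 13 for TTR and in 7 of 12 for KRT19, but in 5 and 4 of 13 for ALB and KRT18. The summed level of 8 leukocyte markers was 1.30 to 4.31 CPM in the control and 1.45 to 1.74 CPM in the MTR4 KD libraries, with MPO and FCGR3B at 0 in all of them. CD14, a monocyte marker that liver cells also express, was at 0.908, 1.26 and 1.41 CPM in the control libraries and at 0.359, 0.674 and 0.375 CPM in the MTR4 KD libraries (log2 fold change -1.34). Every MTR4 KD library was thus below every control library, as in 12.6% of all tested genes. For CD14, edgeR's test gave an adjusted p = 0.0820, in a fit that called 3.6% of all tested genes. With the class of libraries as a covariate it gave an adjusted p = 0.00821, in a fit that called 20.2% of them. The other 2 tested leukocyte markers had higher means in the MTR4 KD group (log2 fold change 0.69 for ITGAM and 1.17 for CD79A). Their groups overlapped, with adjusted p-values of 0.428 and 0.535 from edgeR's test. PTPRC had 109 reads in control replicate 3 and 33 in MTR4 KD replicate 3, and CD3E 31 and 25, against at most 8 and 1 in the other libraries. The part of these markers in the results was not tested. The 6 matched fibroblast and endothelial markers summed to 5.77 to 12.0 CPM in the control and 3.76 to 8.87 CPM in the MTR4 KD libraries.

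Epithelial cells answer microbes and inflammatory cytokines with a small set of genes that act outside the cell. The dual oxidases sit in the apical membrane and release hydrogen peroxide, chemokines set up gradients that draw in leukocytes, and secreted proteins such as lipocalin bind molecules that bacteria need. Many of these genes carry binding sites for NF-kB, a dimeric transcription factor that IkB proteins hold in the cytoplasm until receptors for tumor necrosis factor, interleukin-1 or bacterial products trigger their destruction.

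Sequences around the start sites are shown for 6 members. They cover the dual oxidase pair, the chemokines with the larger differences, and CXCL1 and NFKBIA, whose differences were smaller. A link between motifs in these sequences and the differences was not tested. Each sequence is the RefSeq window of 300 bases on GRCh38.p14 from 250 bases before to 50 bases after the gene's start, read on the gene's own strand. The windows lie at chr15:45114123-45114422 (minus strand) for DUOX2, chr2:227813592-227813891 (plus strand) for CCL20, chr4:73998628-73998927 (minus strand) for CXCL5, chr4:74099146-74099445 (minus strand) for CXCL2, chr4:73869143-73869442 (plus strand) for CXCL1 and chr14:35404700-35404999 (minus strand) for NFKBIA. Capitals mark matches on either strand to the 10-base NF-kB consensus and to the letters GGAANTTCC, TGANTCA, TTCNNNGAA and TATAAA.
DUOX2: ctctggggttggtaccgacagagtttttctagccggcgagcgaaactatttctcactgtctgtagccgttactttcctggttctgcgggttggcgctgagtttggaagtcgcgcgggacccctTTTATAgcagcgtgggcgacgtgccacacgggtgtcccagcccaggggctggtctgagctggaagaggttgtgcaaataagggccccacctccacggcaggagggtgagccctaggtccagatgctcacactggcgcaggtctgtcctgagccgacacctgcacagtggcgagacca
CCL20: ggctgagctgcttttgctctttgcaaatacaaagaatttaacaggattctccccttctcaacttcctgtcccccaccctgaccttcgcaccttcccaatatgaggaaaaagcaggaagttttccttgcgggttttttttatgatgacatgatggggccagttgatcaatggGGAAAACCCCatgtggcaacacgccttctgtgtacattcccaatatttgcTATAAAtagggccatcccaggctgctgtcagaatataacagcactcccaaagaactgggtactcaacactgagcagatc
CXCL5: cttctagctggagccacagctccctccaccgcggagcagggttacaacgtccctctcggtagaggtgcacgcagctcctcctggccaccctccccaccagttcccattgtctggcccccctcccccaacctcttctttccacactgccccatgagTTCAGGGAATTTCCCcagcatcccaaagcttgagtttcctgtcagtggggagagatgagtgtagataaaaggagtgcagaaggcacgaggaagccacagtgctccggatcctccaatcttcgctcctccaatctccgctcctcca
CXCL2: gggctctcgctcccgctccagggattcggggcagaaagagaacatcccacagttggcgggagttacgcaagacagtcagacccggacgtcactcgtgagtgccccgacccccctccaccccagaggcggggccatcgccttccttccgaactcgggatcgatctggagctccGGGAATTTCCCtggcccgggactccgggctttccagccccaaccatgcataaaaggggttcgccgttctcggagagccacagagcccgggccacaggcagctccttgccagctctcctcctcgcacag
CXCL1: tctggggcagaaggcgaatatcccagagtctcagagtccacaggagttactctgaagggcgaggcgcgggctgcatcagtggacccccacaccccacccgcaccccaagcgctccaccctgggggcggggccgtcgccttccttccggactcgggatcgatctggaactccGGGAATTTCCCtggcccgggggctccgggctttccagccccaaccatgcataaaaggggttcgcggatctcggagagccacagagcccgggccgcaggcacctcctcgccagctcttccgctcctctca
NFKBIA: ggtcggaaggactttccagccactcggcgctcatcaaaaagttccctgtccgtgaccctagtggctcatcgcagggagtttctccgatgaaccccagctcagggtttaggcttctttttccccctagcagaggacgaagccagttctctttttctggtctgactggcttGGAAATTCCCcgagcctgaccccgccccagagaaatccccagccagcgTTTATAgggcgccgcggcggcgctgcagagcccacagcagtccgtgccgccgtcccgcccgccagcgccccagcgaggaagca

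The NF-kB consensus was present in a window of 7 of the 10 genes, CCL20, CXCL1, CXCL2, CXCL5, LCN2, IL32 and NFKBIA, and in 5.9% of all 35116 RefSeq windows. GGAANTTCC, a symmetric form of the site that overlaps the consensus in 4 of these genes, was found in 5 (CXCL8, CXCL1, CXCL2, CXCL5 and NFKBIA) against 1.0% of all windows. In CXCL1, CXCL2, CXCL5 and IL32 the consensus matched on both strands, 1 base apart, starting at -79, -78, -91 and -99 relative to the gene's start. The match lay from -79 to -70 in CCL20 and from -81 to -72 in NFKBIA. TGANTCA, the letters that AP-1 factors bind, was found in CXCL8 and LCN2 (7.7% of all windows), and TTCNNNGAA, the letters that STAT factors bind, in CXCL5 alone among the 10 (7.7% of all windows). TATAAA was found in 5 of the 10, DUOX2, DUOXA2, CCL20, CXCL8 and NFKBIA, and in 11.5% of all windows. DUOX2 and DUOXA2 start back to back with 153 bases between them, and the TATAAA from -32 to -27 of DUOXA2 is the same stretch that reads in reverse from -127 to -122 of DUOX2. None of the NF-kB, AP-1 or STAT letters was in the windows of DUOX2 and DUOXA2, which says only that these letters are not in these bases. The counts of genes cover 11 windows for the 10 genes, since IL32 has 2, while the shares count windows. The 10 genes were picked in part as NF-kB-linked, so nothing is read from their counts beside the shares of all windows.

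The mean of each of the 10 genes was lower after MTR4 knockdown, and in 8 of them every MTR4 KD library was below every control library. In IL32 and NFKBIA the groups overlapped. Of all tested genes, 12.6% had every MTR4 KD library below every control library. In the fit across all genes, 6 of the 10, DUOX2, DUOXA2, LCN2, CCL20, CXCL5 and CXCL2, were lower with a fold change over 2 and an adjusted p under 0.05, where 2.12% of all tested genes were lower at this adjusted p and 0.509% had the fold change as well. None of the 10 was higher at this adjusted p, against 1.48% of all tested genes. A log2 fold change at or under that of CCL20 was found for 0.354% of all tested genes. Nothing is read from these counts, since the same contrast served to pick the genes.

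**Figure D1:**
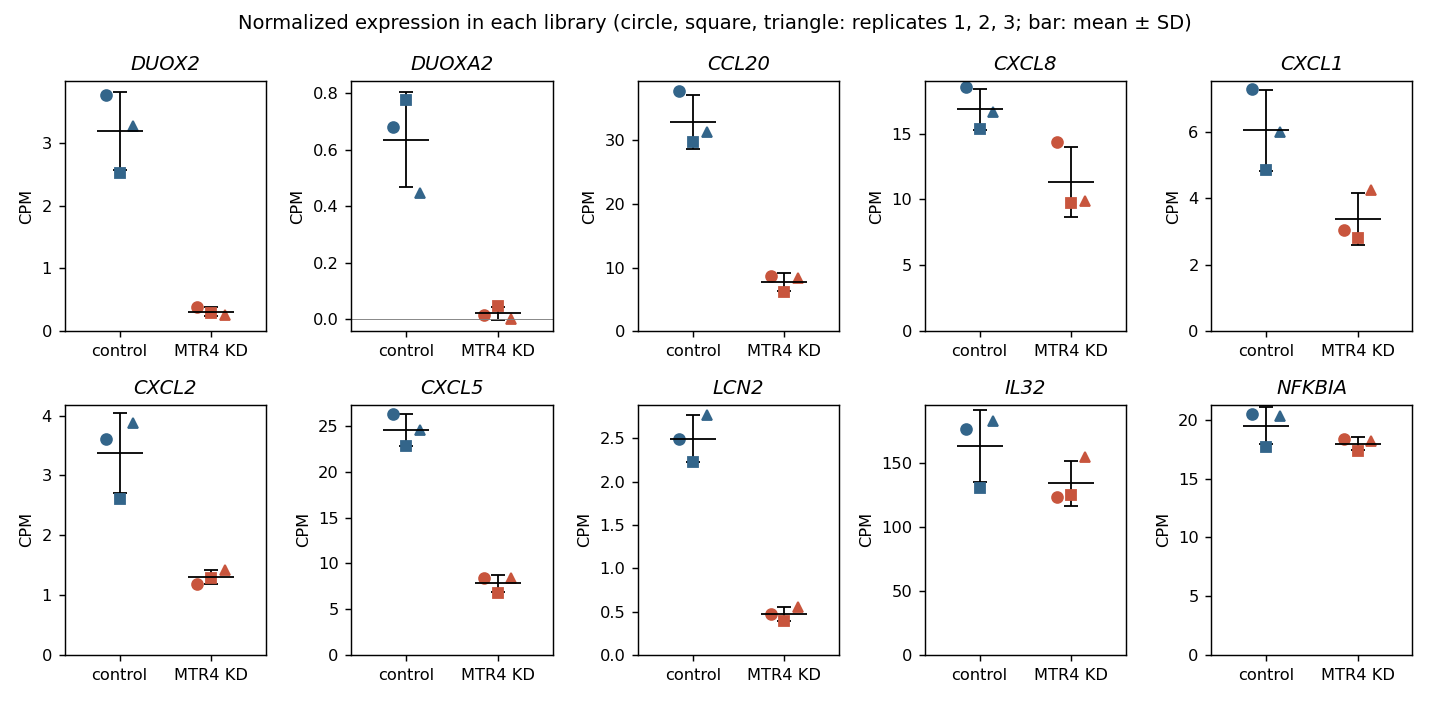
Normalized expression (CPM, linear axes from 0) of the 10 genes in each library, with circles, squares and triangles for replicates 1, 2 and 3 of the control (blue) and MTR4 KD (red) group and bars for the mean ± SD (n = 3). The groups are apart in 8 panels, from DUOX2 at 3.19 against 0.312 CPM to CXCL8 at 16.8 against 11.3 CPM, and they overlap for IL32 and NFKBIA.

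DUOX2 encodes an NADPH oxidase that makes hydrogen peroxide in the thyroid, the gut and the airways. DUOX2 (ENSG00000140279, chromosome 15, 45092650 to 45114172 on GRCh38) was at 3.76, 2.53 and 3.27 CPM in control replicates 1, 2 and 3 and at 0.391, 0.284 and 0.261 CPM in MTR4 KD replicates 1, 2 and 3. These levels rest on 183 to 232 reads per control library and on 16 to 24 reads per MTR4 KD library. The lowest control library was thus several times above the highest MTR4 KD library. The mean was 3.19 ± 0.621 CPM in the control and 0.312 ± 0.0694 CPM in the MTR4 KD group (SD, 3 libraries each), a 10.2-fold difference and a log2 fold change of -3.34 (standard error 0.249). Within the libraries with more non-unique reads the log2 difference was -3.60, and within the others -2.81. Among the tested genes with a mean of at least 100 counts, DUOX2 had the 6th largest fall, and among all tested genes the 13th. Its mean of 111.8 counts passes this cut only through the control libraries. Nothing is read from these ranks, since DUOX2 was picked as one of the largest falls. Of the 50-base windows of its longest coding transcript, 7.13% also occur in DUOX1, so some reads of the 2 oxidases could not be assigned to one of them.

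DUOXA2 encodes the partner that DUOX2 needs to leave the endoplasmic reticulum and reach the membrane. DUOXA2 (ENSG00000140274) had 42, 56 and 27 reads in the control libraries and 1, 3 and 0 reads in the MTR4 KD libraries. In CPM this was 0.681, 0.773 and 0.448 against 0.0163, 0.0449 and 0. The control group was clearly higher, but the level in the MTR4 KD libraries was at or under 3 reads in each. The summed counts of 125 and 4 reads gave a level 30.5 times higher in the control group, with an exact binomial 95% interval from 11.6 to 113.5 that covers counting error only. The fitted log2 fold change of -4.80 depends on the prior count and is no bound. The locus shares 1056 bases with DUOXA1 in the RefSeq annotation, and the strand setting of the counting is not given in the sources used here.

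The other dual oxidase pair lies next to them on chromosome 15. DUOX1, the second dual oxidase, had 0.487, 0.773 and 0.564 CPM in the control libraries and 0.652, 0.749 and 0.343 CPM in the MTR4 KD libraries. The groups overlapped, and edgeR's quasi-likelihood test gave an adjusted p = 0.941 for the log2 fold change of -0.07 (standard error 0.359). DUOXA1, the partner of DUOX1, had 1 to 7 reads per control library and 1 or 2 reads per MTR4 KD library and was not tested.

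**Figure D2:**
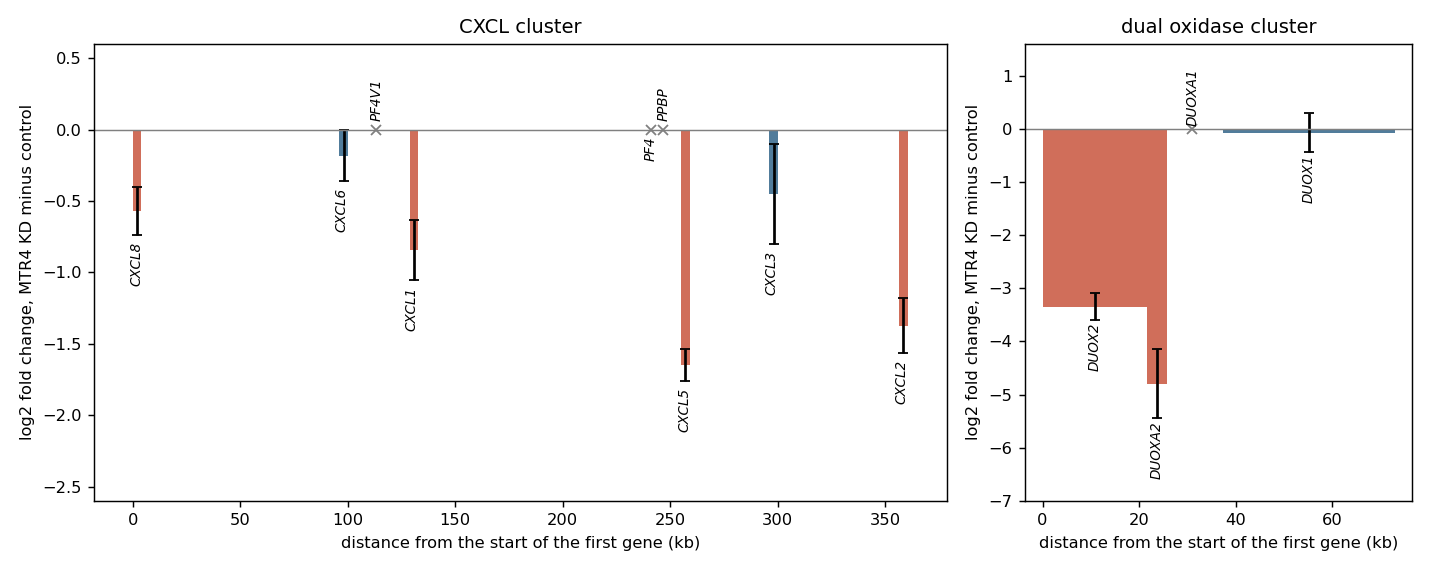
Log2 fold change (MTR4 KD minus control, error bars SE) of the genes in the CXCL cluster on chromosome 4 and in the dual oxidase cluster on chromosome 15 against the distance from the start of the first gene in kb. Red bars are genes of the list, blue bars their neighbours, and crosses genes with too few reads to test. DUOX2 is at -3.34 beside DUOX1 at -0.07, and CXCL5 at -1.65 lies beside CXCL3 at -0.45.

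CCL20 is the ligand of the receptor CCR6 and draws in Th17 cells and immature dendritic cells. CCL20 (ENSG00000115009, chromosome 2, 227813842 to 227817556 on GRCh38) was at 37.8, 29.7 and 31.3 CPM in the control libraries and at 8.69, 6.12 and 8.38 CPM in the MTR4 KD libraries. No MTR4 KD library came near the lowest control library. The mean was 32.9 ± 4.27 CPM against 7.73 ± 1.40 CPM (SD, 3 libraries each), a 4.26-fold difference and a log2 fold change of -2.09 (standard error 0.159). The differences within the 2 classes of libraries were close, -2.03 for many non-unique reads and -2.02 for few. No 50-base window of its longest coding transcript occurs in another gene. CCR6 had a mean of 6 reads per library and was not tested.

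The other 4 chemokines are CXC chemokines that attract neutrophils through the receptors CXCR1 and CXCR2, and all lie in one cluster on chromosome 4 (GRCh38). CXCL5 (ENSG00000163735, 73995642 to 73998677) was at 26.4, 22.8 and 24.6 CPM in the control libraries and at 8.36, 6.77 and 8.37 CPM in the MTR4 KD libraries. Its groups were far apart beside a spread of 1.78 CPM (SD) in the control and 0.922 CPM in the MTR4 KD libraries, with a 3.14-fold difference and a log2 fold change of -1.65 (standard error 0.112). CXCL2 (ENSG00000081041, 74097040 to 74099195) was at 3.62, 2.61 and 3.88 CPM in the control libraries and at 1.19, 1.29 and 1.42 CPM in the MTR4 KD libraries. The MTR4 KD libraries of CXCL2 were close together and all below the lowest control library, a 2.59-fold difference and a log2 fold change of -1.37 (standard error 0.192).

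CXCL1 (ENSG00000163739, 73869393 to 73871308) was at 7.30, 4.86 and 5.99 CPM in the control libraries and at 3.05, 2.80 and 4.26 CPM in the MTR4 KD libraries. Its groups did not overlap, but MTR4 KD replicate 3 lay near control replicate 2, and the log2 fold change was -0.84 (standard error 0.210). CXCL8 (ENSG00000169429, 73740569 to 73743716), which encodes interleukin-8, was at 18.5, 15.4 and 16.7 CPM in the control libraries and at 14.4, 9.75 and 9.90 CPM in the MTR4 KD libraries. Here MTR4 KD replicate 1 stood above its other replicates and just under control replicate 2, and the log2 fold change was -0.57 (standard error 0.165). Among libraries with many non-unique reads it was -0.82, and among the others -0.37.

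Neighbours of these genes in the cluster had smaller differences. CXCL6, the next gene after CXCL8, was at 4.65, 3.88 and 4.31 CPM in the control libraries and at 4.76, 3.43 and 3.13 CPM in the MTR4 KD libraries (log2 fold change -0.18, adjusted p = 0.639 from edgeR's test). CXCL3, which lies between CXCL5 and CXCL2, was at 1.10, 0.649 and 0.746 CPM against 0.733, 0.374 and 0.718 CPM (log2 fold change -0.45, adjusted p = 0.547 from edgeR's test). Both overlapped between the groups. PF4, PF4V1 and PPBP, the platelet chemokines of the cluster, had a mean of at most 6.33 reads per library and were not tested. CXCL1, CXCL2 and CXCL3 are near copies, and 5.33% of the 50-base windows of CXCL1 and 10.1% of those of CXCL2 occur in another of the 3, so how their reads were divided is uncertain. CXCR1 and CXCR2 had a mean of 0.167 reads each.

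LCN2 encodes lipocalin-2, which starves bacteria of iron by binding their siderophores. LCN2 (ENSG00000148346, chromosome 9, 128149453 to 128153453 on GRCh38) was at 2.50, 2.22 and 2.77 CPM in the control libraries and at 0.473, 0.389 and 0.555 CPM in the MTR4 KD libraries. The groups were well apart, with means of 2.50 ± 0.273 and 0.472 ± 0.0826 CPM (SD, 3 libraries each), a 5.29-fold difference and a log2 fold change of -2.40 (standard error 0.207). The MTR4 KD libraries held 26 to 34 of its reads each. Within the classes the difference was -2.18 for many non-unique reads and -2.29 for few.

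IL32, an intracellular and secreted cytokine that induces other cytokines, was the most abundant of the 10. IL32 (ENSG00000008517, chromosome 16, 3065403 to 3069530 on GRCh38) was at 176.8, 131.1 and 183.2 CPM in the control libraries and at 123.5, 125.0 and 154.8 CPM in the MTR4 KD libraries. MTR4 KD replicate 3 was above control replicate 2, so the groups overlapped, and the log2 fold change was -0.28 (standard error 0.146). NFKBIA encodes IkB-alpha, the inhibitor that holds NF-kB in the cytoplasm and is itself induced by NF-kB. NFKBIA (ENSG00000100906, chromosome 14, 35401513 to 35404749 on GRCh38) was at 20.5, 17.7 and 20.4 CPM in the control libraries and at 18.4, 17.4 and 18.2 CPM in the MTR4 KD libraries. Its groups overlapped, and its log2 fold change of -0.12 (standard error 0.0851) was -0.17 among libraries with many non-unique reads and 0.02 among the others.

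**Figure D3:**
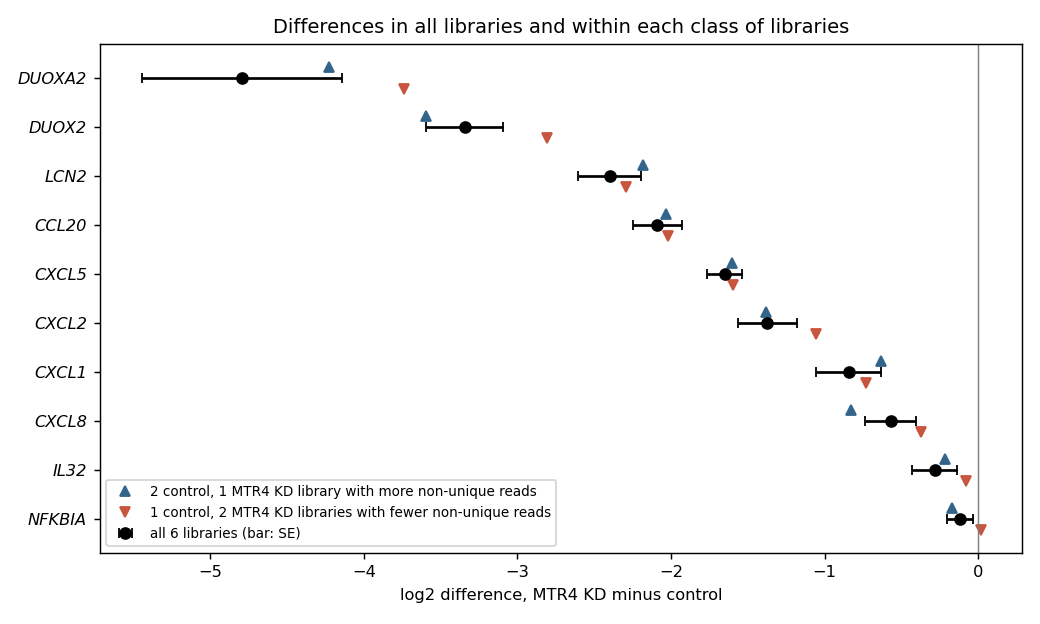
Log2 difference (MTR4 KD minus control) of the 10 genes over all 6 libraries (black circles, bars SE) and within the libraries with more (blue triangles pointing up) and fewer (red triangles pointing down) non-unique reads. Both classes lie below 0 for all genes but NFKBIA, at -0.17 and 0.02, and the order runs from DUOXA2 at -4.80 to NFKBIA at -0.12, where the DUOXA2 value rests on 4 reads in the MTR4 KD libraries.

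Per kilobase of exon, the control libraries ranked IL32 first at 51.0 CPM per kb, then CCL20 at 20.6, CXCL5 at 10.1, CXCL8 at 6.51, NFKBIA at 5.75, CXCL1 at 4.44, CXCL2 at 2.41, LCN2 at 1.56, DUOX2 at 0.330 and DUOXA2 at 0.249 CPM per kb. In this order CXCL8 and NFKBIA, NFKBIA and CXCL1, and DUOX2 and DUOXA2 overlapped over the 3 control libraries, and the other neighbours did not. LCN2, DUOX2 and DUOXA2, the lowest in level, had the largest differences between the groups, 5.29-fold, 10.2-fold and a ratio of 30.5. The next lowest, CXCL2, differed 2.59-fold. CCL20 and CXCL5, the second and the third in level, differed 4.26-fold and 3.14-fold, while the difference was 1.22-fold for IL32 and 1.09-fold for NFKBIA. Nothing is read from level beside difference, since the genes were picked around large falls and DUOXA2 passed the filter on low counts only through the control libraries. In the MTR4 KD libraries CXCL8 had a mean of 4.38 CPM per kb, near CCL20 at 4.85 CPM per kb. In bulk samples, fewer cells that express a gene and less RNA per cell cannot be told apart.

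Each MTR4 KD library was also set against the mean of the control libraries on the log2 CPM scale. The difference of DUOX2 was -2.91, -3.33 and -3.44 in replicates 1, 2 and 3. That of CCL20 was -1.91, -2.41 and -1.96, and that of LCN2 -2.32, -2.58 and -2.104. MTR4 KD replicate 2 was thus the lowest of the group for CCL20 and LCN2 but not for DUOX2. CXCL8 differed by -0.22, -0.78 and -0.76 and CXCL1 by -0.96, -1.08 and -0.48. The smallest difference lay in replicate 1 for CXCL8 and in replicate 3 for CXCL1.

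Among the 12853 other tested genes with a mean of at least 100 counts, those whose log2 CPM went most closely with DUOX2 over the 6 libraries were BHLHE40, SPRY2 and PDK1, with Pearson correlations of 0.999, 0.999 and 0.998. The mean of BHLHE40, a transcriptional repressor, went from 81.3 CPM in the control to 28.8 CPM in the MTR4 KD libraries, that of SPRY2, an inhibitor of receptor tyrosine kinase signalling, from 7.45 to 4.72 CPM, and that of PDK1, a kinase that shuts off pyruvate dehydrogenase, from 48.9 to 29.3 CPM. DUOX2 differed between the groups, so the genes closest to it had to differ as well, and these levels are given without a test. For CCL20 they were SPTLC1, CCDC68 and SNX25 (r = 0.999, 0.998 and 0.998). The mean of SPTLC1, a subunit of serine palmitoyltransferase, was 49.4 CPM in the control and 43.2 CPM in the MTR4 KD libraries, a far smaller difference than that of CCL20. These 6 genes were the closest of 12853 over 6 points, and the values of a point share the depth and the class of their library.

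Lists of other genes were examined next. The lists were drawn up with earlier results of these data known. Their shares of called genes are therefore a description, and nothing is read from setting them beside the share of all tested genes. The first list held 40 genes that carry and restrain the NF-kB signal, without NFKBIA, and all 40 were tested. Of these, 2 fell, 0 rose and 38 did not pass the test (adjusted p under 0.05, edgeR's quasi-likelihood test), 5% against 3.6% of all tested genes. The median log2 fold change was -0.04, against 0.01 over all tested genes. The 2 genes were TNIP1, a partner of the A20 ubiquitin-editing enzyme, from 164.8 to 114.8 CPM (log2 fold change -0.52, adjusted p = 0.0441), and the subunit NFKB2, from 122.9 to 89.2 CPM (log2 fold change -0.46, adjusted p = 0.0469). The other subunits had log2 fold changes of 0.30 for REL, -0.0021 for NFKB1, -0.10 for RELA and -0.12 for RELB, with adjusted p-values between 0.174 and 0.991. The count was 0 without control replicate 1 or 3 or without MTR4 KD replicate 1 or 2. Of all tested genes these fits called 164, 183, 163 and 137, against 650 with all libraries. The count was 8 with the class of libraries as a covariate, a fit that called 20.2% of all tested genes, 10.8% as lower and 9.43% as higher.

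Other genes known to be induced through NF-kB gave 24 tested genes of the 34 matched, of which 2 fell, 0 rose and 22 did not pass the test (8.33% against 3.6% of all tested genes). Their median log2 fold change was -0.21, and in 21 of the 24 the log2 fold change was below 0, as it was in 8841 of all 18075 tested genes. ICAM1, the adhesion molecule to which neutrophils bind, was at 55.1, 38.5 and 49.5 CPM in the control libraries and at 13.9, 15.02 and 16.2 CPM in the MTR4 KD libraries. It fell by 1.66 on the log2 scale with a standard error of 0.139 (edgeR's test, adjusted p = 0.00159), and it passed the test in all 13 alternative fits, with an adjusted p of 0.0225 or less. CSF1, the growth factor of macrophages, fell from 40.3 to 27.6 CPM (adjusted p = 0.0424 from edgeR's test). TNF, IL1B and IL6, the cytokines that start or carry the response, had at most 6 reads in any library and were not tested. The count was 1 without control replicate 1 or 3 or without MTR4 KD replicate 1 or 2, and 4 without control replicate 2. Of all tested genes these fits called 164, 183, 163, 137 and 803. The count was 7 with the replicate number as a block, which called 4.74% of all tested genes. With the class of libraries as a covariate, which called 20.2% of all tested genes, it was 10.

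Of 34 tested genes for cytokine and innate receptors and their kinases, 3 fell, 1 rose and 30 did not pass the test (11.8% against 3.6%), with a median log2 fold change of -0.16. OSMR, a receptor chain for oncostatin M, fell from 59.4 to 35.7 CPM (log2 fold change -0.73, adjusted p = 0.00317 from edgeR's test). IL1R2, a decoy receptor for interleukin-1, and IL18R1, a receptor chain for interleukin-18, fell by 0.66 and 0.54 on the log2 scale, while IL1RAP, the accessory chain of the interleukin-1 receptor, rose by 0.69. The count of 4 was 1 without control replicate 1 or MTR4 KD replicate 1 or 2, 2 without control replicate 3, and 15 with the class of libraries as a covariate. Of all tested genes these fits called 164, 163, 137, 183 and 3649, against 650 with all libraries and no covariate.

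Other antimicrobial and acute-phase genes gave 18 tested genes of 31, of which 4 fell, 0 rose and 14 did not pass the test (22.2% against 3.6%), with a median log2 fold change of -0.48. C3, the central complement component, was at 376.8, 376.3 and 369.5 CPM in the control libraries and at 193.9, 189.8 and 155.2 CPM in the MTR4 KD libraries (log2 fold change -1.06, adjusted p = 0.00182 from edgeR's test). TFF1, a trefoil peptide of mucosal secretions, fell by 1.68, LBP, which binds bacterial lipopolysaccharide, by 1.30 and the membrane mucin MUC13 by 0.48 on the log2 scale. The count was 2 without control replicate 1 or MTR4 KD replicate 1, 1 without MTR4 KD replicate 2, and 8 with the class of libraries as a covariate. Of all tested genes these fits called 164, 163, 137 and 3649, against 650 with all libraries and no covariate.

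Outside the listed chemokines, 15 of 30 chemokine and receptor genes were tested, of which 2 rose, 0 fell and 13 did not pass the test (13.3% against 3.6%), with a median log2 fold change of -0.18. CXCL12, a ligand of CXCR4 that holds leukocytes and stem cells in tissues, rose from 22.8 to 39.9 CPM (log2 fold change 0.81, adjusted p = 0.00327 from edgeR's test), and CCL15, a chemokine made by the liver, rose from 23.1 to 35.1 CPM (adjusted p = 0.0179). CXCL12 passed the test in all 13 alternative fits, and CCL15 did not without control replicate 1 or 3 or MTR4 KD replicate 1 or 2, which left a count of 1. The count was 4 with DESeq2's Wald test, which called 1363 of the 16301 genes to which it gave an adjusted p. It was also 4 with the class of libraries as a covariate, which called 20.2% of all tested genes. Among 12 other tested genes of oxidases and peroxide handling, 0 passed edgeR's test. An unadjusted p under 0.05 was found for 3 of these 12 and for 3392 of all 18075 tested genes. The median log2 fold change of the 12 was -0.02. DESeq2's Wald test called 1 of the 12 and the fit with the class of libraries as a covariate 5.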

How the data were processed

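RNA-seq reads of 6 libraries of PLC/PRF5 cells were deposited by the authors as raw counts of reads per Ensembl gene, without normalization, 1 library per file. The submitters' processing notes name HISAT2 2.1.0, HTSeq and DESeq2, and the study's methods name GRCh38 for the alignment. The strand setting is not given in the sources used here. Reads not assigned to a gene made up 37.8% to 49.3% of the entries and stayed out of library sizes. The members and the gene lists were chosen with earlier results of these data known.

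GENCODE annotation on GRCh37 gave symbols, exon lengths and transcripts, and positions and promoters from RefSeq (GRCh38.p14). SOD2 and PECAM1 were not matched by symbol and were not used here. Genes were kept by edgeR's filterByExpr (minimum of 10 counts), scaled by TMM and tested with edgeR 4.0.16 in R 4.3.3 by the quasi-likelihood test, with MTR4 KD against control as its single term. A gene was called at a Benjamini-Hochberg adjusted p under 0.05 over all tested genes. The standard error is the log2 fold change divided by the square root of the F statistic. CPM refer to the TMM-scaled library size, so that 1 read was 0.0138 to 0.0166 CPM, and 3 reads were taken as the floor. Libraries over 30% non-unique reads formed one class. Within-class differences used log2 CPM with a prior count of 2. Replicates of a group differed by a chi-square per degree of freedom of 4.61 and 7.96 within a class and 84.1 to 93.5 between classes. Each was counted as 1 sample, although these values do not show that the replicates were separate cultures. DESeq2 1.42.0, other scalings and filters, a replicate block, the class of libraries as a covariate and leaving out each library were the alternatives.

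The genes named were the 10 members, MTR4, their cluster neighbours, the receptors CCR6, CXCR1 and CXCR2, the NF-kB subunits, at most 4 called genes per direction in each list, and for DUOX2 and CCL20 the 3 genes most alike. Genes that did not pass the test and are named beside these, as well as marker genes, were chosen after their values were seen.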

Additional observations from a re-analysis of the deposited data

How the results depend on the processing

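The sign of the log2 fold change held in the 15 alternatives run for 8 of the 10 members and in the 14 run for DUOXA2, which the filter of 1 CPM in 3 libraries removed. NFKBIA changed sign within the libraries with fewer non-unique reads (0.02) and in none of its other 14 alternatives. Leaving out a library gave -3.53 to -3.21 for DUOX2, -2.18 to -1.95 for CCL20, -0.77 to -0.48 for CXCL8 and -0.19 to -0.08 for NFKBIA. DUOXA2 ranged from -5.98 without MTR4 KD replicate 2 to -4.27 when a library was left out, and 3 of its 4 reads in the MTR4 KD group lie in MTR4 KD replicate 2. The number of members with an adjusted p under 0.05 was 6, was 4 to 7 when a library was left out, and reached 9 with the class of libraries as a covariate. In the same order, these fits called 650, 137 to 803 and 3649 of all tested genes. As above, nothing is read from the counts of members.

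Over all tested genes, 650 were called. The count was 1363 with DESeq2's Wald test, 3649 with the class of libraries as a covariate, 150 with a fold change over 2 as well, and 137 to 803 when a library was left out. With DESeq2's Wald test, 1 other oxidase gene, 4 chemokine genes, 7 NF-kB target genes and 10 receptor signalling genes were called. With the class as a covariate these counts were 5, 4, 10 and 15, with 8 NF-kB pathway and 8 antimicrobial and acute-phase genes. With a fold change over 2 as well they were 0 for chemokine, NF-kB pathway and receptor genes and 1 for NF-kB targets. DESeq2's size factors left 1 NF-kB pathway gene and total counts gave 1 oxidase gene, in fits that called 640 and 625 of 18075 tested genes. Without a filter, 4 of 34 tested NF-kB targets were called, and 702 of all 35496 tested genes. A filter of 1 CPM in 3 libraries gave 1 of 6 oxidase genes and 4 of 21 NF-kB targets, and 726 of all 13659 tested genes. When a library was left out, the counts were 0 for oxidase, 1 to 3 for chemokine, 0 to 3 for NF-kB pathway, 1 to 4 for NF-kB target, 1 to 6 for receptor and 1 to 5 for antimicrobial and acute-phase genes. The cause of these shifts was not tested.

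The correlation of same-numbered deviations across genes was -0.24, 0.32 and 0.35. It was 0.32 to 0.36 for any control and MTR4 KD library of the same class and -0.49 to -0.23 for those of different classes. These correlations follow the class of libraries, so they cannot tell whether equal numbers pair the libraries. With the replicate block 857 genes were called, 4.74% of those tested, with 1 oxidase gene and 7 NF-kB targets. Control replicate 3 correlated best with its own number, while control replicates 1 and 2 correlated best with MTR4 KD replicates 3 and 1 (r = 0.34 and 0.36). Levels at or under 3 reads per library, among them those of DUOXA2 in the MTR4 KD group and of KRT19 in MTR4 KD replicate 2, are limited by depth.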
